A study of Mus musculus with 6 samples.

Results

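The 10 genes described here encode the PIWI proteins of the mouse and proteins that make or bind piRNAs, the small RNAs that guide PIWI proteins. They are Piwil1, Piwil2, Piwil4, Mov10l1, Ddx4, Asz1, Pld6, Tdrkh, Mael and Gtsf1. They were taken by gene name, and earlier results of these data were known when the genes and lists were chosen. All 10 were found among the 26743 genes of the count table. The libraries were made from total RNA of whole testis at postnatal day 21, after depletion of ribosomal RNA, from 3 wild-type (WT) mice and 3 Trf2-/- mice. Trf2, listed in the table as Tbpl1, encodes a relative of the TATA-box binding protein, and Trf2-/- males are known to be sterile, with spermatogenesis arrested as spermatids begin to elongate. Both genotypes shared the same age and tissue, and the labels name no Cre driver, transgene or further agent in either of them. The study's methods name a 129/SvPas background where they describe its Trf2 tag/tag mice, and the labels name no strain for the WT and Trf2-/- mice. The comparison asks which transcripts of this pathway were at other levels in the testis without Trf2.

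PIWI proteins are Argonaute relatives of the germ line that bind piRNAs and, through them, silence transposons by cleaving their transcripts or by directing DNA methylation. Long precursors are transcribed from clusters, brought to the surface of mitochondria, cut there and loaded onto PIWI proteins, and then trimmed and methylated at the 3' end. In mice Piwil4 acts mainly in fetal male germ cells, Piwil2 from fetal life until the round spermatid, and Piwil1 from the pachytene spermatocyte onwards, when the transcription factor A-MYB (Mybl1) drives a late set of piRNA clusters. Many of these proteins gather in the intermitochondrial cement and in the chromatoid body, the perinuclear granules of male germ cells.

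Reads counted on genes ran from 21582123 to 29859347 in the WT mice and from 15187062 to 24530489 in the Trf2-/- mice. Levels are given as CPM, counts scaled to the TMM-adjusted size of each library. A count of 0 still allows up to 3 counts, which correspond to 0.105 to 0.144 CPM in WT and 0.119 to 0.19 CPM in Trf2-/- mice, and cover counting error only. The 16924 genes that passed a filter on low counts, all 10 genes among them, were tested with the quasi-likelihood method of edgeR. A gene was called higher or lower when its p, adjusted over all tested genes by Benjamini-Hochberg, was under 0.05. Tbpl1 itself was at 308, 283 and 294 CPM in WT testis and at 62.9, 64.3 and 55.8 CPM in Trf2-/- testis, a log2 fold change of -2.27 (SE 0.06, adjusted p = 1.18e-06). Across all tested genes 31.4% were called, 20.2% lower and 11.2% higher in Trf2-/- testis, and 4.90% were called with a change of at least 2-fold. Lower genes made up 64.4% of the calls, and 38.7% when libraries were scaled by their size alone. All tested genes together had a median log2 fold change of 0.04. The first principal component (63.3% of the variance) separated the genotypes, and Trf2-/- replicate 3, the library with the fewest reads, lay farthest out on it.

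Of the 10 genes, 4 were called lower (Piwil1, Pld6, Mael and Gtsf1) and 0 were called higher, beside the 20.2% and 11.2% of all tested genes. At an unadjusted p under 0.05, 4 were lower and 2 (Piwil4 and Asz1) were higher. DESeq2's Wald test also called 4 lower and 0 higher. When libraries were scaled by their size alone, the same 4 were lower and 5 others (Piwil2, Piwil4, Mov10l1, Asz1 and Tdrkh) were called higher, while the median of all tested genes moved to 0.13. In either direction 4 of 10 were called, which is near the 31.4% of all tested genes. The decreases were small, between 15.9% and 23.5% of the WT level, and 0 of the 10 genes changed by 2-fold or more, beside 4.90% of all tested genes. The median of the 10 log2 fold changes was 0.00, with a range from -0.39 (Pld6) to 0.71 (Piwil4). The values of the 3 mice of each genotype did not overlap in 7 genes, in 4 with Trf2-/- below and in 3 with Trf2-/- above, whereas 49.2% of all tested genes showed no overlap.

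Trf2 belongs to a family of proteins that act at core promoters, so the start regions of the 4 genes called lower are shown with that of Ddx4, an abundant germ cell gene that was not called. Each window holds 250 bases before and 50 bases after the RefSeq start (table of build GRCm38.p6), and each was found exactly 1 time in NCBIM37, the build of the count table, whose coordinates are given. The windows lie at chr1:168168826-168169125 (minus strand) for Mael, chr11:59601110-59601409 (minus) for Pld6, chr15:103260809-103261108 (minus) for Gtsf1, chr5:129241871-129242170 (plus) for Piwil1 and chr13:113442469-113442768 (minus) for Ddx4. Sequences run 5' to 3' in the direction of transcription. Capitals mark matches on either strand to the motifs searched. The CCAAT box was searched under its own letters. The GC box was spelled GGGCGG in this search. The TATA box was searched by the letters TATAAA. For MYB proteins the site was written CAGTTG. The core of the cAMP response element was searched as TGACG.
Mael: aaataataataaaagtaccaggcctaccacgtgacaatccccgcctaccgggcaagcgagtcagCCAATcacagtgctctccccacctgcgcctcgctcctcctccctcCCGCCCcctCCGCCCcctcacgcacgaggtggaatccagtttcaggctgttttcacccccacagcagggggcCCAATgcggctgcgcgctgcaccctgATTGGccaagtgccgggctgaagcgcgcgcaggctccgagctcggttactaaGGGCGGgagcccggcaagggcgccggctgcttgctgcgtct
Pld6: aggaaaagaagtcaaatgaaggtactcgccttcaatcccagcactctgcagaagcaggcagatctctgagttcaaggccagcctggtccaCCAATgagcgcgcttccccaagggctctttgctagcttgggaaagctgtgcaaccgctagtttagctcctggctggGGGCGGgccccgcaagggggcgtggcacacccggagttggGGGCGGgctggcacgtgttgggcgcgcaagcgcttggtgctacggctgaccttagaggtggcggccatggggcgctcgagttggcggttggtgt
Gtsf1: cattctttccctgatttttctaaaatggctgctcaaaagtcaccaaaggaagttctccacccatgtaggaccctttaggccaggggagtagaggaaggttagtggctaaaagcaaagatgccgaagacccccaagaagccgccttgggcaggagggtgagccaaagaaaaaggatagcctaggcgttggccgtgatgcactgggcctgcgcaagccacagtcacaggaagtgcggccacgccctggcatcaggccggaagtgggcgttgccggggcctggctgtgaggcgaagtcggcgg
Piwil1: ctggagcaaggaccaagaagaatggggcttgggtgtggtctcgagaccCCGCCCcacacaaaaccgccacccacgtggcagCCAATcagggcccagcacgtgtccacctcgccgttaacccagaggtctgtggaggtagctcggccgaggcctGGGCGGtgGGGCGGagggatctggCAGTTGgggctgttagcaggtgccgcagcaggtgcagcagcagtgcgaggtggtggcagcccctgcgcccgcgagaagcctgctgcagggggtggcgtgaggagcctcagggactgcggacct
Ddx4: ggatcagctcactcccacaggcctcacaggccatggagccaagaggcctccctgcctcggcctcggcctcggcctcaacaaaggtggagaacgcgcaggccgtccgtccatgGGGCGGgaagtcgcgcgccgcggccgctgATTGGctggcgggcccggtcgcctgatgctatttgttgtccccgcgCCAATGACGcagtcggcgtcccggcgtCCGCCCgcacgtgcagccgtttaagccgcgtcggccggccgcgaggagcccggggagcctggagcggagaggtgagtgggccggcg

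The table held 11 windows for 9 of the 10 genes. It held none for Piwil2. The Mael, Pld6, Piwil1 and Ddx4 windows each hold both CCAAT and GGGCGG, whether the gene was called lower or not, while the Gtsf1 window holds none of the letters searched. The GC content was 65.0% for Mael, 62.3% for Pld6, 57.7% for Gtsf1, 67.7% for Piwil1 and 72.0% for Ddx4, beside a median of 52.7% over 32851 mouse promoter windows of the same length. Among the 11 windows, 8 hold GGGCGG and 6 hold CCAAT, against 35.7% and 37.4% of all windows. TATAAA is found in 1 window, of Piwil4, against 13.6% of all windows. That match is on the opposite strand, at the far upstream end of the window and not near the start. CAGTTG is found in 1, of Piwil1, against 13.7%. TGACG is found in 1, of Ddx4, where it overlaps a CCAAT, against 20.8%. The full element TGACGTCA is found in 0 of the 11 and in 1.79% of all windows. These matches describe letters in a window and were not tested against the change in level.

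Among the PIWI proteins, Piwil1 was lower in Trf2-/- testis while Piwil2 and Piwil4 were not called. Piwil1 (MIWI, ENSMUSG00000029423, chromosome 5 from 129242121 to 129261349, plus strand), the PIWI protein of late spermatocytes and round spermatids, stood at 758, 726 and 681 CPM in WT replicates 1 to 3 and at 619, 602 and 599 CPM in Trf2-/- replicates 1 to 3. Each Trf2-/- mouse was below each WT mouse. The mean went from 722 ± 38.9 to 607 ± 10.7 CPM (SD, n = 3 mice each). The log2 fold change was -0.25 (SE 0.05, adjusted p = 0.00583, edgeR). Piwil2 (MILI, ENSMUSG00000033644, chromosome 14 from 70772287 to 70828901, minus strand), which cleaves precursors and transposon transcripts, stood at 724, 689.6 and 685 CPM in WT and at 756, 728 and 767 CPM in Trf2-/- mice. The Trf2-/- mice were all above the WT mice, but by a small margin, and the gene was not called (log2 fold change 0.10, SE 0.04, adjusted p = 0.119, edgeR).

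Piwil4 (MIWI2, ENSMUSG00000036912, chromosome 9 from 14500674 to 14545177, minus strand), the nuclear PIWI protein that directs DNA methylation in fetal germ cells, was the least abundant of the 10 genes. Its counts were 43, 66 and 28 in WT and 80, 70 and 41 in Trf2-/- mice. This corresponds to 1.5, 2.53 and 1.34 CPM and to 3.17, 3 and 2.59 CPM. The genotypes did not overlap, yet WT replicate 2 lay close to Trf2-/- replicate 3, and the gene was not called (log2 fold change 0.71, SE 0.25, adjusted p = 0.0587, edgeR). Without WT replicate 2 it was called higher, at a log2 fold change of 1.04 (adjusted p = 0.0149). Its exons share 137 bases with a gene model on the opposite strand, Gm10706, which had 1 read in all WT mice together and 0 in the Trf2-/- mice. The exons of the other 9 genes overlap no exon of another gene.

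**Figure D1:**
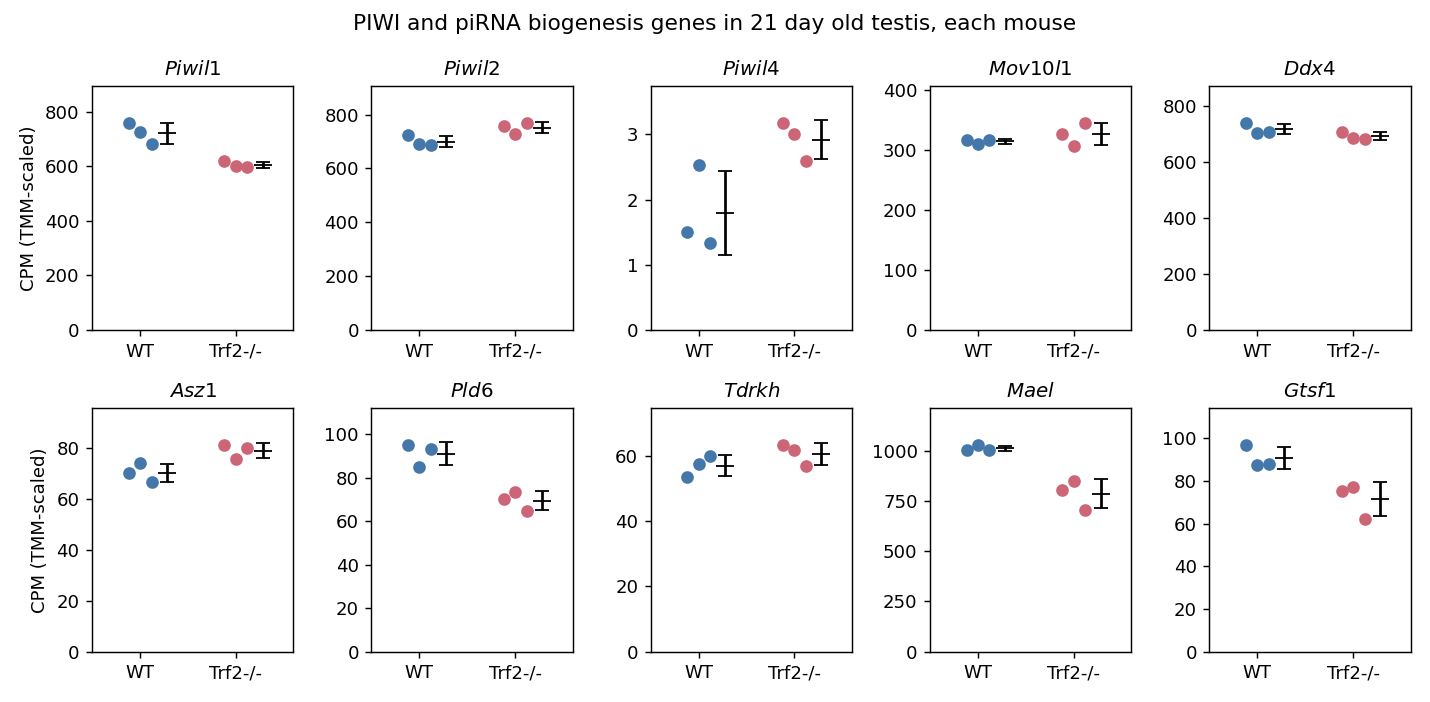
Level of each of the 10 genes in CPM (vertical axes, each from 0) in the 3 WT and 3 Trf2-/- mice, where points are mice and black bars the mean ± SD. Piwil1, Pld6, Mael and Gtsf1 lie lower in each Trf2-/- mouse than in each WT mouse, and Piwil2, Piwil4 and Asz1 lie higher in each Trf2-/- mouse without being called.

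The ratio between PIWI transcripts within a mouse does not depend on the scaling between libraries. The ratio of Piwil1 to Piwil2, in counts per kb of gene length, was 1.3, 1.31 and 1.24 in the WT mice and 1.02, 1.03 and 0.973 in the Trf2-/- mice. The ranges did not overlap. The mean log2 ratio of counts went from 0.04 ± 0.05 to -0.31 ± 0.04 (SD, n = 3 mice each), a difference of -0.35. An exact two-sided permutation test gave p = 0.1, the smallest that 3 mice against 3 can give, and 0.15 after adjustment over the 3 ratios computed. The log2 ratio of Piwil4 to Piwil2 differed by 0.66 with overlapping ranges (exact permutation p = 0.2, adjusted 0.2). That of Piwil1 to Piwil4 differed by -1.01 without overlap (exact permutation p = 0.1, adjusted 0.15). Per kb, Piwil1 was 392-fold to 692-fold above Piwil4 in WT mice and 266-fold to 316-fold above it in Trf2-/- mice.

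The RNA helicases of the pathway showed no call. Mov10l1 (ENSMUSG00000015365, chromosome 15 from 88813339 to 88885582, plus strand), which binds piRNA precursors and is needed for their processing, stood at 317, 310.3 and 318 CPM in WT and at 327, 308 and 345 CPM in Trf2-/- mice. The genotypes overlapped (log2 fold change 0.05, SE 0.05, adjusted p = 0.456, edgeR). Ddx4 (MVH, ENSMUSG00000021758, chromosome 13 from 113388541 to 113442518, minus strand), the Vasa helicase that marks germ cells and their granules, stood at 739, 705 and 709.7 CPM in WT and at 709, 686 and 684 CPM in Trf2-/- mice. Its ranges also overlapped, and its log2 fold change was -0.05 (SE 0.04, adjusted p = 0.386, edgeR), which turned to 0.04 when library size alone was used for scaling. Both helicases had standard errors no larger than that of Piwil1, and neither passed the test.

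Of the 3 proteins that sit on the mitochondrial surface, Pld6 was lower and the other two were not called. Pld6 (MitoPLD, ENSMUSG00000043648, chromosome 11 from 59597399 to 59601147, minus strand), known for its part in cutting precursors into shorter piRNA intermediates, stood at 95.0, 84.9 and 93.3 CPM in WT and at 70.4, 73.5 and 64.7 CPM in Trf2-/- mice. Each Trf2-/- mouse was below each WT mouse. The mean went from 91.0 ± 5.38 to 69.5 ± 4.43 CPM (SD, n = 3 mice each). The log2 fold change was -0.39 (SE 0.07, adjusted p = 0.00261, edgeR). Asz1 (GASZ, ENSMUSG00000010796, chromosome 6 from 18000964 to 18059061, minus strand), a scaffold of the intermitochondrial cement, stood at 70.1, 74.0 and 66.7 CPM in WT and at 81.2, 75.7 and 80.0 CPM in Trf2-/- mice. The Trf2-/- mice were all above the WT mice, and the log2 fold change of 0.17 was just outside the threshold (SE 0.06, adjusted p = 0.0526, edgeR). Tdrkh (ENSMUSG00000041912, chromosome 3 from 94217218 to 94236555, plus strand), a Tudor and KH domain protein that holds PIWI proteins for trimming, stood at 53.5, 57.5 and 60.0 CPM in WT and at 63.3, 61.7 and 56.9 CPM in Trf2-/- mice. The genotypes overlapped (log2 fold change 0.09, SE 0.07, adjusted p = 0.298, edgeR).

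Both remaining partners of PIWI proteins were lower. Mael (Maelstrom, ENSMUSG00000040629, chromosome 1 from 168131516 to 168168875, minus strand), an HMG-box protein of the granules that is needed to repress transposons, stood at 1006, 1028 and 1005 CPM in WT and at 805, 849 and 706 CPM in Trf2-/- mice. The genotypes were well apart, and the spread was wider among the Trf2-/- mice. The mean went from 1013 ± 13.1 to 787 ± 73.2 CPM (SD, n = 3 mice each). The log2 fold change was -0.36 (SE 0.07, adjusted p = 0.00351, edgeR). Gtsf1 (ENSMUSG00000022487, chromosome 15 from 103232836 to 103260901, minus strand), a small zinc finger protein that assists cleavage by PIWI proteins, stood at 96.7, 87.6 and 87.7 CPM in WT and at 75.1, 76.9 and 62.3 CPM in Trf2-/- mice. Each Trf2-/- mouse was again below each WT mouse. The mean went from 90.7 ± 5.21 to 71.4 ± 7.98 CPM (SD, n = 3 mice each). The log2 fold change was -0.34 (SE 0.08, adjusted p = 0.0139, edgeR). Without WT replicate 1, Gtsf1 was no longer called (log2 fold change -0.29, adjusted p = 0.0609).

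Trf2-/- replicate 3 had the lowest level of each of the 4 genes called lower. Relative to the WT mean, on the log2 scale, Mael stood at -0.33, -0.26 and -0.52 in Trf2-/- replicates 1 to 3 and Gtsf1 at -0.27, -0.24 and -0.54. Pld6 stood at -0.37, -0.31 and -0.49. Piwil1 was nearly even, at -0.22, -0.26 and -0.27. Mael, Pld6 and Gtsf1 were thus lowest in that library, and all 4 genes were still called lower without it.

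**Figure D2:**
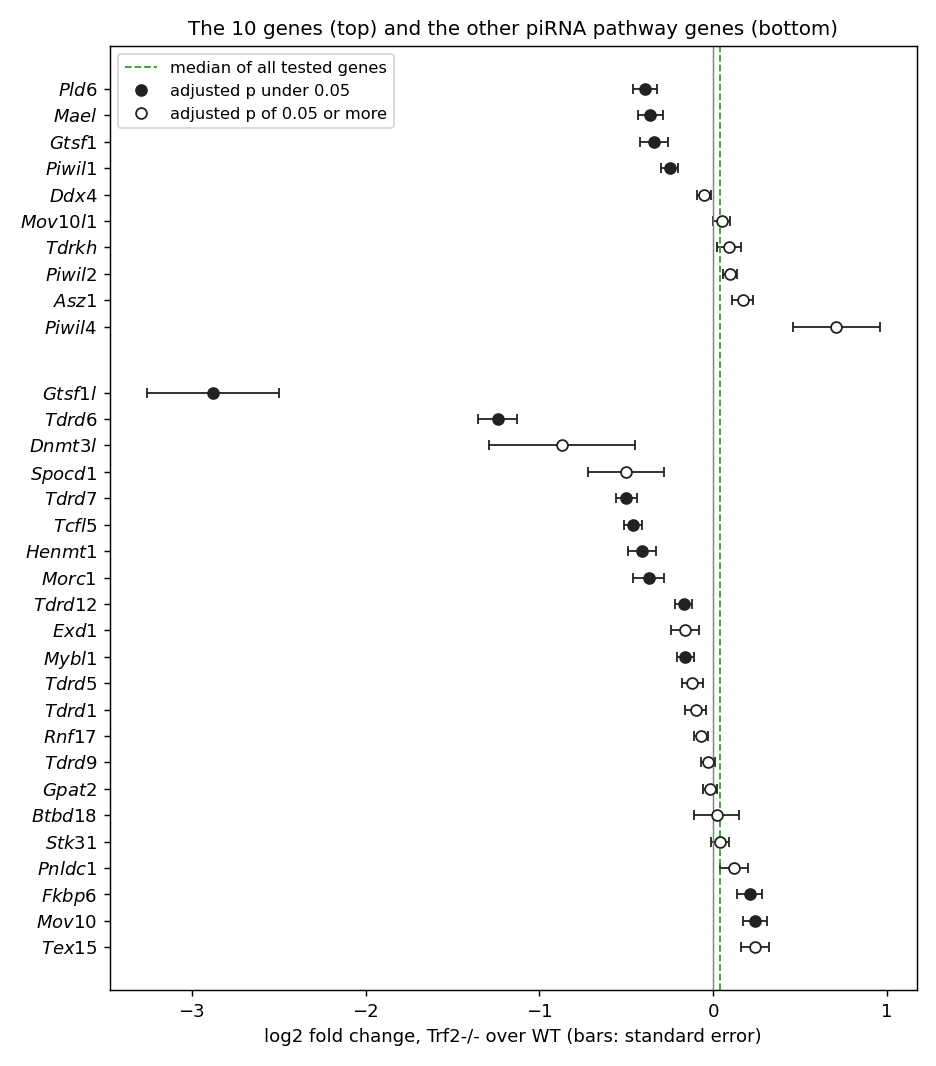
Log2 fold change of Trf2-/- against WT testis (horizontal axis, ± SE) for the 10 genes (top) and the further pathway genes (bottom), with filled points for an adjusted p under 0.05 and a dashed line at the median of all tested genes, 0.04. The 10 genes spread from -0.39 (Pld6) to 0.71 (Piwil4), and the pathway genes from -2.88 (Gtsf1l) to 0.24.

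Levels were compared between genes as CPM per kb of gene length. In WT testis the order was Mael (655 ± 8.47 CPM per kb, SD, n = 3 mice), Ddx4 (252 ± 6.46), Piwil1 (183 ± 9.85), Piwil2 (142 ± 4.33), Mov10l1 (76.2 ± 1.02), Gtsf1 (65.2 ± 3.75), Pld6 (51.8 ± 3.06), Asz1 (38.4 ± 2), Tdrkh (15 ± 0.869) and Piwil4 (0.332 ± 0.12). No neighbours in this order overlapped between the 3 WT mice. In Trf2-/- testis Mael remained first, at 509 ± 47.4 CPM per kb, before Ddx4 at 243 ± 4.95. Piwil1 (154 ± 2.71 CPM per kb) and Piwil2 (153 ± 4.11 CPM per kb) overlapped there. Asz1 (43.2 ± 1.59 CPM per kb) and Pld6 (39.6 ± 2.52 CPM per kb) overlapped as well. The values of Asz1 depend on the length used, which is 1830 bases in the deposited table and 2829 exonic bases in the NCBIM37 annotation. With the latter Asz1 was at 24.8 ± 1.29 CPM per kb in WT and 27.9 ± 1.03 in Trf2-/- testis, below Pld6 without overlap in both genotypes. Tdrkh (15.9 ± 0.881 CPM per kb) and Piwil4 (0.543 ± 0.0556 CPM per kb) were again lowest. Ranked by CPM without scaling for length, Mael, Ddx4, Piwil1 and Piwil2 were at percentiles 99.4 to 99.7 of tested genes, whereas Piwil4 was at percentile 20.3.

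**Figure D3:**
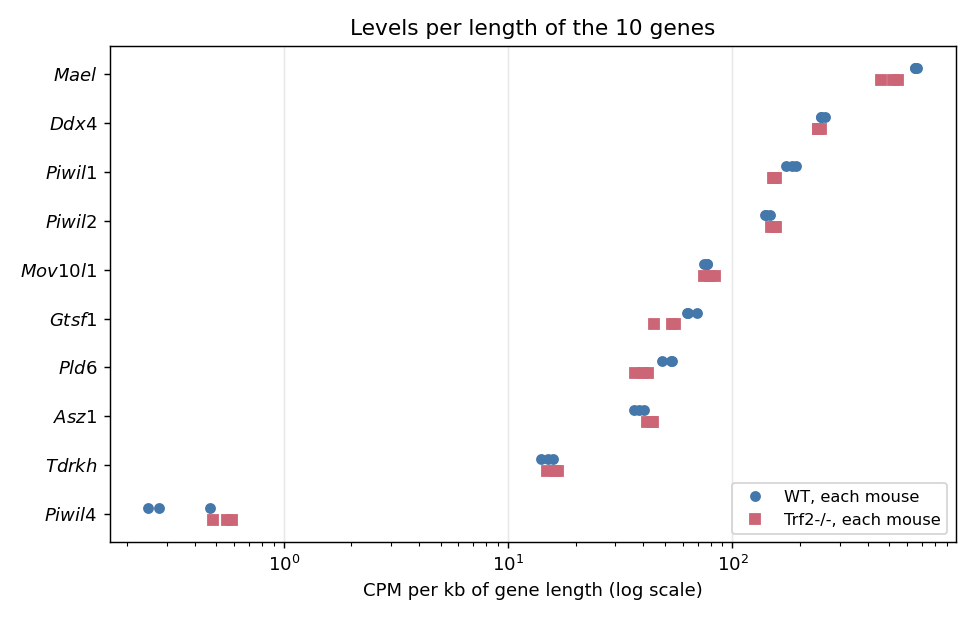
Level of each of the 10 genes in CPM per kb (logarithmic axis) in each mouse, with WT and Trf2-/- mice in separate colours. Mael is at the top in both genotypes (655 and 509 CPM per kb on average) and Piwil4 at the bottom (0.332 and 0.543), and Piwil1 meets Piwil2 in the Trf2-/- mice.

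A further list of 23 pathway genes was read beside them. Gtsf2 was not analysed here, and the other 22 were all tested. Of these 8 were called lower and 2 higher, with a median log2 fold change of -0.14, beside 20.2% and 11.2% of all tested genes and a median of 0.04. The Tudor domain proteins, which bind methylated arginines of PIWI proteins and build the granules, held 3 of the calls among 8 genes, all lower. Tdrd6, a scaffold of the chromatoid body, had the largest change of the list after Gtsf1l. It stood at 1123, 1046 and 1054 CPM in WT and at 462, 535 and 370.2 CPM in Trf2-/- mice. The genotypes were far apart, at a log2 fold change of -1.24 (SE 0.11, adjusted p = 0.000329, edgeR). Tdrd7, which shares the chromatoid body, went from 339, 318 and 318 to 238, 243 and 208 CPM (log2 fold change -0.50, SE 0.06, adjusted p = 0.000864). Tdrd12, a helicase with Tudor domains, went from a mean of 217 to 193 CPM (log2 fold change -0.17, adjusted p = 0.0201). Tdrd1, Tdrd5 and Tdrd9 were not called, at log2 fold changes of -0.10, -0.12 and -0.03.

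Of the 3 genes tied to transcription of piRNA loci, 2 were called lower and 0 higher. Mybl1, the activator of the late piRNA clusters, stood at 277, 253 and 257 CPM in WT and at 239, 231 and 233 CPM in Trf2-/- mice. The decrease was small (log2 fold change -0.16, SE 0.05, adjusted p = 0.0336, edgeR). Tcfl5, a basic helix-loop-helix factor of spermatocytes, went from 395, 368 and 359 to 270.5, 279 and 267 CPM (log2 fold change -0.46, SE 0.05, adjusted p = 0.000505). Btbd18, a nuclear protein of pachytene piRNA loci, was matched only through a synonym to an antisense gene model and is uncertain, at a log2 fold change of 0.02.

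Among 5 genes of end processing and loading, 1 was called lower and 1 higher. Henmt1, which methylates the 3' end of piRNAs, went from 41.8, 40.6 and 40.2 to 31.7, 33.5 and 26.9 CPM (log2 fold change -0.41, SE 0.08, adjusted p = 0.0055, edgeR), without overlap. Fkbp6, a cochaperone of piRNA loading, went from a mean of 119.8 to 138 CPM (log2 fold change 0.21, SE 0.07, adjusted p = 0.0455). Pnldc1, the trimming enzyme, was not called (log2 fold change 0.12). Of 4 genes of nuclear silencing, Morc1 was called lower, from 17.9 to 13.9 CPM (log2 fold change -0.37, adjusted p = 0.0165), and Dnmt3l, at 0.59 CPM in WT, was not (adjusted p = 0.143).

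The paralogues of 2 of the 10 genes were called in opposite directions. Gtsf1l, a relative of Gtsf1, had counts of 54, 45 and 33 in WT and of 5, 9 and 1 in Trf2-/- mice. It went from 1.73 ± 0.149 to 0.216 ± 0.162 CPM (SD, n = 3 mice each). The log2 fold change was -2.88 (SE 0.38, adjusted p = 0.000927, edgeR), far beyond that of Gtsf1. Mov10, the widely expressed relative of Mov10l1, went from 56.7 to 67.0 CPM (log2 fold change 0.24, SE 0.07, adjusted p = 0.0363). The 2 calls of higher levels, Fkbp6 and Mov10, were lost when any 1 WT mouse was left out, and without WT replicates 1, 2 and 3 the calls of the pathway list fell from 10 to 6, 5 and 7.

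The miRNA machinery, which does the corresponding work for another class of small RNAs, was read as a comparator. Of 9 tested genes 2 were called lower and 1 higher, with a median log2 fold change of 0.02. Tarbp2, a partner of Dicer, was the lowest of those called (log2 fold change -0.34, adjusted p = 0.0133, edgeR), and Dicer1 the highest (log2 fold change 0.21, adjusted p = 0.0274).

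These are whole testes, in which fewer cells of a type and less RNA per cell cannot be told apart, so markers of the testis cell types were read in the same mice. Germ cell markers such as Sycp3 and Sertoli cell markers such as Clu were present in all 6 mice, which matches the labelled tissue. The round spermatid markers Acrv1 and Catsper3 had 0 counts in Trf2-/- replicate 3, and Txndc8 had 0 counts in Trf2-/- replicates 1 and 3. Of 10 pachytene spermatocyte markers 8 were called lower and 0 higher (median log2 fold change -0.58), beside 20.2% and 11.2% of all tested genes. The count fell to 6 with DESeq2 size factors, library size alone or at least 10 counts in every mouse. It was also 6 without WT replicate 1, WT replicate 2 or Trf2-/- replicate 2. The summed level of the 10 pachytene markers was 6344 to 6758 CPM in WT mice and 4799.6, 5059 and 4042 CPM in Trf2-/- replicates 1 to 3. Of 8 tested round spermatid markers 7 were called lower and 0 higher (median -1.49). The sum over all 10 listed was 345 to 366 CPM in WT mice and 199.9, 219.9 and 138 CPM in Trf2-/- replicates 1 to 3. Most of that sum was Spata16, at 292, 270.2 and 279 CPM in WT and 156, 173 and 106 CPM in Trf2-/- replicates 1 to 3. Trf2-/- replicate 3, lowest in Mael, Pld6, Gtsf1 and Tdrd6, also had the lowest sums for these late stages. That library had the highest sums of the 6 mice for spermatogonia (398 CPM) and Sertoli cell markers (2319.8 CPM). The part of cell composition in the lower Piwil1, Pld6, Mael and Gtsf1 was not tested.

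The lowest of the called pachytene markers was Ccna1, a meiotic cyclin (log2 fold change -1.63). Acrv1, an acrosomal protein and the lowest of the round spermatid markers, had 33, 41 and 24 counts in WT and 1, 3 and 0 in Trf2-/- mice. Its WT mean of 1.29 CPM was 6.81-fold above 0.19 CPM, the level of 3 counts in the smallest Trf2-/- library. As 2 of the Trf2-/- mice had reads, this ratio is not a lower bound on the decrease. The 2 round spermatid markers that were not tested, Txndc8 and Spaca4, also had at most 3 counts in each Trf2-/- mouse. Of 9 early spermatocyte markers 5 were called higher and 0 lower (median 0.22), and their sum ran from 1644 to 1672 CPM in WT and from 1848 to 1981 CPM in Trf2-/- mice. With any 1 WT mouse left out, 4 were called higher. Msh4, a meiotic recombination protein, was the highest of the early spermatocyte markers (log2 fold change 0.36). Of 10 spermatogonia markers only Kit, a receptor of differentiating spermatogonia, was called (log2 fold change 0.19, higher), with sums of 303 to 321 CPM in WT and 307 to 398 CPM in Trf2-/- mice.

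The calls among somatic markers were all towards higher levels. Of 9 Sertoli cell markers 6 were called higher and 0 lower (median 0.27), with Amh, the anti-Müllerian hormone, at the top (log2 fold change 0.84). Their sums were 1791 to 1925 CPM in WT and 2099.8 to 2319.8 CPM in Trf2-/- mice. Rhox5, also listed for Sertoli cells, was not analysed. Of 8 macrophage markers 5 were called higher (median 0.67), led by the lysozyme gene Lyz2 (log2 fold change 1.36). Their sum was 178 to 202 CPM in WT and 401, 243 and 203 CPM in Trf2-/- replicates 1 to 3, so that replicate 1 stood apart, and the calls fell to 2, 0 and 0 without WT replicates 1, 2 and 3 and to 3 without Trf2-/- replicate 1. Leydig cell markers held 1 call among 7 genes (Hsd3b1, a steroid enzyme, 0.32), with sums of 252 to 435 CPM in WT and 268 to 406 CPM in Trf2-/- mice. Peritubular cell markers held 1 call among 6 (Des, desmin, 0.48), with sums of 294 to 377 CPM in WT and 366 to 422 CPM in Trf2-/- mice. The 4 genes called lower stayed so when Trf2-/- replicate 1 was left out. The part of somatic cells in their levels was not tested.

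**Figure D4:**
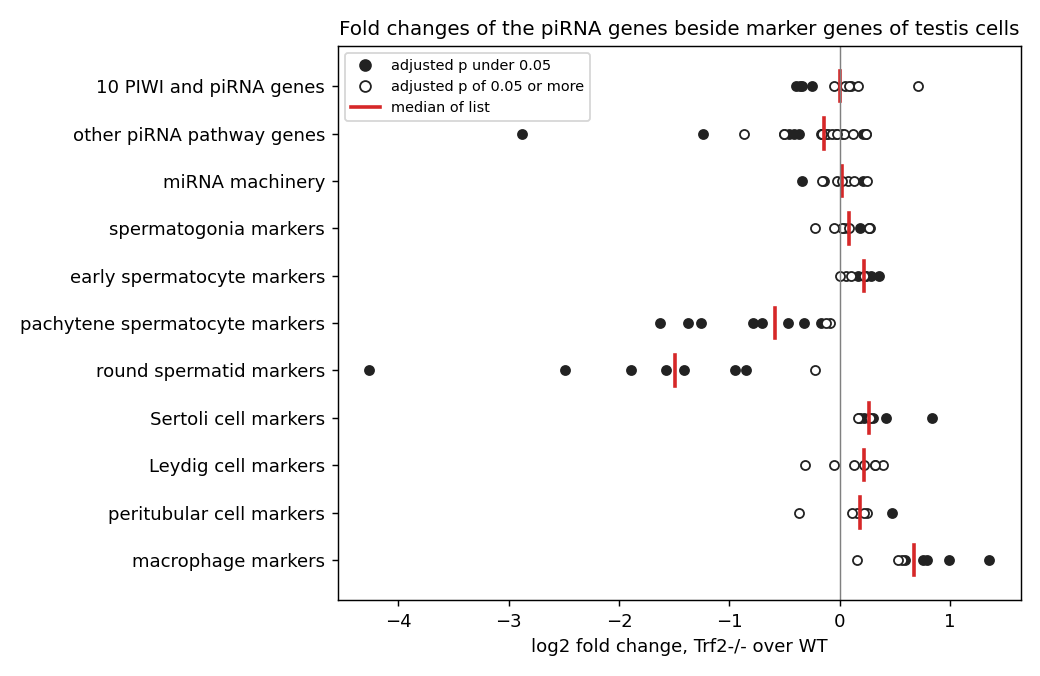
Log2 fold change of Trf2-/- against WT testis for each tested gene of each list (points, filled where the adjusted p was under 0.05), with the list's median in red. The 10 genes centre on 0.00 and the pathway list on -0.14, between the early spermatocyte markers (median 0.22) and the pachytene (-0.58) and round spermatid markers (-1.49). The medians of the miRNA machinery (0.02), the spermatogonia markers (0.08) and the peritubular cell markers (0.19) lie in the same interval.

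The genes whose profile over the 6 mice was most like that of each PIWI gene were sought by the distance between log2 CPM profiles, each centred on its own mean. For Piwil1 they were Ankle2 (distance 0.034, log2 fold change -0.25), Sugp2 (0.044 and -0.27) and Cep76 (0.045 and -0.23). For Piwil2 they were Mrps7 (distance 0.031, log2 fold change 0.10), Ube4a (0.032 and 0.10) and Wdr26 (0.035 and 0.08). The nearest to Piwil4 were farther away: Zfp599 (distance 0.223, log2 fold change 0.68), B020018G12Rik (0.255 and 0.73) and Glrx (0.295 and 0.60). No member of the pathway list was among these 9. As the distance was taken over the same 6 mice, the similar fold changes follow from how the genes were chosen.

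The biological terms in the deposited annotation tie the 10 genes together unevenly. The term piRNA metabolic process was held by 8 genes of the table, 5 of them among the 10 (Piwil1, Piwil2, Piwil4, Pld6 and Mael). Of the 8 genes 4 were called lower and 0 higher, beside 20.2% and 11.2% of all tested genes. All 4 were already counted above, Piwil1, Pld6 and Mael among the 10 genes and Henmt1 in the pathway list. The term piRNA binding was held by the 3 PIWI genes and by no other gene. The chromatoid body term was held by 7 genes, among them Piwil1, Piwil2, Ddx4 and Mael. Spermatogenesis was given for 7 of the 10 genes and for 270 genes in all.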

How the data were processed

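Stranded total RNA-seq was available for whole testes of 6 mice aged 21 days, 3 per genotype. The authors sequenced single-end reads of 50 bases and deposited raw counts per gene on build NCBIM37 (mm9), with 1 column per mouse. The submitters' processing notes name CASAVA 1.8.2, TopHat2 2.0.10, Bowtie2 2.1.0, HTSeq 0.5.4p3 and DESeq2 1.0.19. The annotation release and the counter's strand setting are not given in the sources used here. Without strand, reads on bases that a gene shares with an antisense partner cannot be assigned to either. The 12 normalized columns were not used.

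Counts were compared with edgeR 4.0.16 (R 4.3.3) using TMM, filterByExpr, glmQLFit and glmQLFTest, with Benjamini-Hochberg adjustment over the 16924 tested genes, which held 99.9% of the reads. Calls required an adjusted p under 0.05. The SE was derived from the log2 fold change and the F statistic. CPM used TMM-scaled library sizes, and lengths came from the deposited table. The biological coefficient of variation was 0.0838. Within-mouse ratios were compared by exact permutation (SciPy 1.17.1). Promoters were taken from RefSeq. The alternatives were DESeq2 size factors, library size alone, the Wald test of DESeq2 1.42.0, no filter, at least 10 counts in every mouse, a replicate block, each mouse left out, an adjusted p of 0.01 and a 2-fold threshold.

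The genes, lists and tests were chosen with earlier results of these data known. Named were all 10 genes, the called pathway genes, the inactivated gene, the called marker and comparator genes with the lowest and highest fold change, and the 3 nearest profiles of each PIWI gene. Other genes are named as examples chosen after their values were seen. The smallest chi-square statistic between mice of a genotype was 3.51 times its degrees of freedom, so no library was counted 2 times. The scripts were tested on simulated data.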

Additional observations from a re-analysis of the deposited data

How the results depend on the processing

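Piwil1, Pld6 and Mael were called lower under each alternative except the 2-fold threshold, and Gtsf1 under each except that threshold, an adjusted p of 0.01 (0.0139) and leaving out WT replicate 1 (0.0609). Over the alternatives the adjusted p ran from 0.000343 to 0.031 for Piwil1, from 4.12e-05 to 0.0157 for Pld6, from 4.48e-05 to 0.0194 for Mael, from 0.00269 to 0.0609 for Gtsf1 and from 0.0149 to 0.19 for Piwil4. Scaling by library size alone raised the median of all log2 fold changes to 0.13, the genes called higher to 4267, and the 10 genes called to 9, with 5 higher (Piwil2, Piwil4, Mov10l1, Asz1 and Tdrkh), and turned Ddx4 to 0.04. The share of calls that were lower then fell from 64.4% to 38.7%. It was 76.9%, 77.5% and 71.3% without WT replicates 1, 2 and 3. Without a filter 1 of the 10 genes was higher, Piwil4 (adjusted p = 0.0413). At an adjusted p of 0.01, 2815 genes were called, 481 of them higher, and 5 of the pathway list, 5 lower and 0 higher. With a 2-fold threshold 830 were called, 727 lower and 103 higher, with 0 of the 10 genes (0 lower) and 2 pathway genes (2 lower and 0 higher).

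Leaving out each mouse in turn gave 3413 to 5235 calls (5312 with all mice, 3413 and 3470 without WT replicates 1 and 2), 2626 to 3332 lower and 780 to 1903 higher (1889 with all mice, 787, 780 and 1168 without WT replicates 1, 2 and 3, and 1174 without Trf2-/- replicate 1), 3 to 5 of the 10 genes (3 to 4 lower, 0 to 1 higher) and 5 to 10 of the pathway list (5 to 8 lower, 0 to 2 higher). The log2 ratio of Piwil1 to Piwil2 then differed by -0.38 to -0.32, that of Piwil4 to Piwil2 by 0.50 to 0.95 and that of Piwil1 to Piwil4 by -1.28 to -0.87. The labels share only a replicate number between genotypes, and the deviations of mice with the same number correlated at -0.097, -0.031 and -0.102. With the replicate block 4580 genes were called (3094 lower, 1486 higher), with the same 4 of the 10 genes and 10 of the pathway list, and the ratios gave an exact p of 0.25, the smallest that 3 pairs allow. The Wald test of DESeq2 called 4699 genes, with 4 of the 10 and 11 of the pathway list. Exonic bases of the reference annotation in place of the deposited length, tried after seeing the data, lowered the level of Asz1 to 24.8 CPM per kb in WT and 27.9 in Trf2-/- testis, and that of Mov10l1 to 74.8 in WT. Where a call was gained or lost the cause was not tested. Among the 10 genes depth limits Piwil4 most, which had at most 80 counts in a mouse.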
